A study of Mus musculus with 2 samples.

Results

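The genes described here encode the proteins of the mitochondrial ribosome, the particle that translates the messenger RNAs of mitochondrial DNA. They were taken from a table of exon and intron levels in wild-type mouse embryonic stem cells as the protein-coding transcripts (GENCODE M21 annotation, genome build GRCm38) whose gene symbol is Mrpl or Mrps followed by a number and at most 1 letter. This gave 153 transcripts of 77 genes, out of 121429 transcripts with an exon level and 49490 protein-coding transcripts of 21587 genes. The annotation holds 78 such genes, and the remaining 1, Mrpl32, was not analysed here.

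The cells were DTCM23/49 XY mouse embryonic stem cells, wild-type in genotype, depleted of feeder cells and kept on gelatin in serum medium with leukemia inhibitory factor. They received 4-thiouridine (4sU), a uridine analogue that enters RNA as it is made, at 200 µM for 10 min. RNA carrying 4sU was biotinylated and captured on streptavidin beads to give the labeled library, and the RNA left in the supernatant gave the unlabeled library. The labels call this second library preexisting RNA in some fields and total RNA in others, and it was used as unlabeled RNA. Both libraries are of replicate 1 and are the only 2 libraries, 1 for each pool, so no difference has a replicate check and no test between the pools was possible. Other replicates of the study were not analysed here. Levels are in the deposited unit, a length-normalized share of the library that the study names TPM, although a column adds up to 10 times what that unit would give. A level that is higher in the labeled library is therefore a larger share of that library, not a larger amount of RNA. Read depth is unknown, so no counting error can be given for a single gene. In such bulk RNA, fewer cells with a transcript and less of the transcript in each cell cannot be told apart. The cells carried the RNA of their label, since all 10 pluripotency markers were above a mean exon level of 1, with Nanog at 1099 in the labeled and 2416 in the unlabeled library. Of 16 markers of differentiated, feeder and other cells, 6 passed the same filter, the highest of them Pax6 at 68.7 and 70.5, while Gata6, Sox17, Foxa2, Postn and Ptprc were listed at 0 in both libraries.

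The mitochondrial ribosome has a large and a small subunit, and its RNAs are encoded by mitochondrial DNA, whereas all of its proteins are encoded in the nucleus, translated in the cytosol and imported. Some of these proteins descend from those of a bacterial ribosome, and others are found only in mitochondria. The particle makes the mitochondrially encoded subunits of the respiratory chain and of ATP synthase, which assemble with nuclear-encoded partners, so that its protein genes, the nuclear genes of oxidative phosphorylation and the genes of the cytosolic ribosome were set side by side.

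The member genes lie on 17 chromosomes, and the sequence around their start sites was read to see what they have in common there. Promoters of 68 of the 77 genes were found in the RefSeq table for GRCm38.p6, each from 250 bases before to 50 bases after the annotated start. For each gene the promoter nearest to the start of its most abundant transcript was taken, with no limit of distance. In 57 of the 68 it lay within 100 bases of that start. For Mrpl30 the distance was 2456 bases and for Mrpl39 498, so such a window need not be that of the measured transcript. The sequence CCGGAAG, the core bound by factors of the ETS family such as GABP, stood on either strand in 24 of the 68 (35.3%), against 17.3% of 11201 promoters of protein-coding genes that passed the level filter and 8.86% of all 32851 promoters in the table. It stood in 40.7% of 59 promoters of cytosolic ribosomal protein genes and in 25.8% of 62 of oxidative phosphorylation genes, so it was frequent in these sets too. The sequence AAGATGGC, the core of the YY1 motif, stood in 11 (16.2%), against 4.41% and 2.75%, and in 6.78% and 14.5% of the promoters of these other sets. The palindromic motif of 10 bases bound by NRF1, a factor named for its role at nuclear genes of respiration, stood in 2 (2.94%), those of Mrpl9 and Mrpl39, against 1.91% and 0.971%. At least 1 of these 3 motifs was present in 34 member promoters (50%) and in 22.3% of the promoters of genes passing the filter. No member promoter had a C followed by 4 pyrimidines at the annotated start, the beginning of the terminal oligopyrimidine tract of cytosolic ribosomal protein genes, while 12 of 59 promoters of the latter had it (20.3%), as did 6.45% of oxidative phosphorylation promoters and 2.40% of those of all genes passing the filter, a share at which few of 68 promoters would have it. Most promoters of cytosolic ribosomal protein genes thus lacked these letters too, so reading them at an annotated start can miss the tract. Their absence from member promoters does not show that the members lack it. The box CCAAT was present in 38.2% of member promoters and 38.8% of those of genes passing the filter, the box TATAAA in 7.35% and 7.68%, and GGGCGG, bound by SP factors, in 48.5% and 61.1%. These matches are descriptions of letters in a window, and no test was made of any of these shares.

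Of the motif positions, the ETS core began at a median of 16.5 bases upstream of the annotated start, counted over 28 matches, and the YY1 core at a median of 16 bases downstream, counted over 11 matches. To show this arrangement and its absence, 4 promoters are printed 5′ to 3′ on the strand of the gene, from 180 bases before to 30 bases from the start, with the 3 motifs in capitals. Mrpl33 and Mrps2 were chosen as the genes with the highest and the lowest labeled to unlabeled ratio below, Mrps18a as a promoter with both an ETS and a YY1 core near the start, and Mrps12 for an ETS core just past its start. The windows are chr5:31613771-31613980 on the plus strand for Mrpl33, chr17:46110824-46111033 on the plus strand for Mrps18a, chr7:28741792-28742001 on the minus strand for Mrps12 and chr2:28467886-28468095 on the plus strand for Mrps2.
Mrpl33: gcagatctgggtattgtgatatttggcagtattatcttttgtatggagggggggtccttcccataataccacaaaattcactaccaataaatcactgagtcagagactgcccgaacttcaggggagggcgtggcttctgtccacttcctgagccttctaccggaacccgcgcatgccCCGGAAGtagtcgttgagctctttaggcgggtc
Mrps18a: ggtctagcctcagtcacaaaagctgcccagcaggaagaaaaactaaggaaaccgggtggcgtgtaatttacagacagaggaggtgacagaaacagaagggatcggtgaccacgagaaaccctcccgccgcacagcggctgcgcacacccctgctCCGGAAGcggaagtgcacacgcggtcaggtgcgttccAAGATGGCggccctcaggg
Mrps12: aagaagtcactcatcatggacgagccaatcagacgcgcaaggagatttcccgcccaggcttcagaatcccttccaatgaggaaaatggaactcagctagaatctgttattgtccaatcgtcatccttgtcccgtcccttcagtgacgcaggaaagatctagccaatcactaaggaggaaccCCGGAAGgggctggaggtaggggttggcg
Mrps2: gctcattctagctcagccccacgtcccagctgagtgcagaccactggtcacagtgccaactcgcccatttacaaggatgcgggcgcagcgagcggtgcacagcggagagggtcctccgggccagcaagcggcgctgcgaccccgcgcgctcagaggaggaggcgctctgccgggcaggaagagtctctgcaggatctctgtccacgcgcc
In Mrpl33 the ETS core began 3 bases before the start, and in Mrps18a it began 26 bases before the start, with the YY1 core 11 bases after the start. In Mrps12 the ETS core began at position 1 after the start base, and a YY1 core lay further upstream, outside the printed window. None of the 3 motifs was found in the Mrps2 window. Among other members with the highest ratios, Mrpl28, Mrps16 and Mrpl12 also had none of them, and Mrpl52 had an ETS core. The printed pair of Mrpl33 and Mrps2 therefore stands for no rule. Members with an ETS core had a median log2 ratio of labeled to unlabeled exon level of 0.85, against 0.40 for members without it, and over all genes passing the filter these medians were -0.15 and -0.25. For the YY1 core the order was the other way, with 0.36 for members with it and 0.59 for those without, and for the 2 members with the NRF1 motif the median was 0.03 against 0.55. Among cytosolic ribosomal protein genes the medians with and without an ETS core were 1.38 and 1.40.

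All 77 genes passed the filter of a mean exon level above 1, as did 14493 protein-coding genes in all. Summed over its protein-coding transcripts, the median member had an exon level of 96.6 in the labeled library (range 7.89 to 1221) and 71.8 in the unlabeled library (range 7.34 to 1230). The mean of the libraries had a median of 84.0 over members (quartiles 46.9 and 200.0) and of 35.6 over all genes passing the filter (quartiles 7.85 and 137), and 68 of the 77 members lay above the latter median. The genes thus formed a band of moderate expression, with 21 members below a mean of 50, 25 from 50 to 100, 22 from 100 to 300 and 9 at 300 or more. Together they made up 0.170% of the exon signal of the labeled library and 0.103% of that of the unlabeled library.

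**Figure D1:**
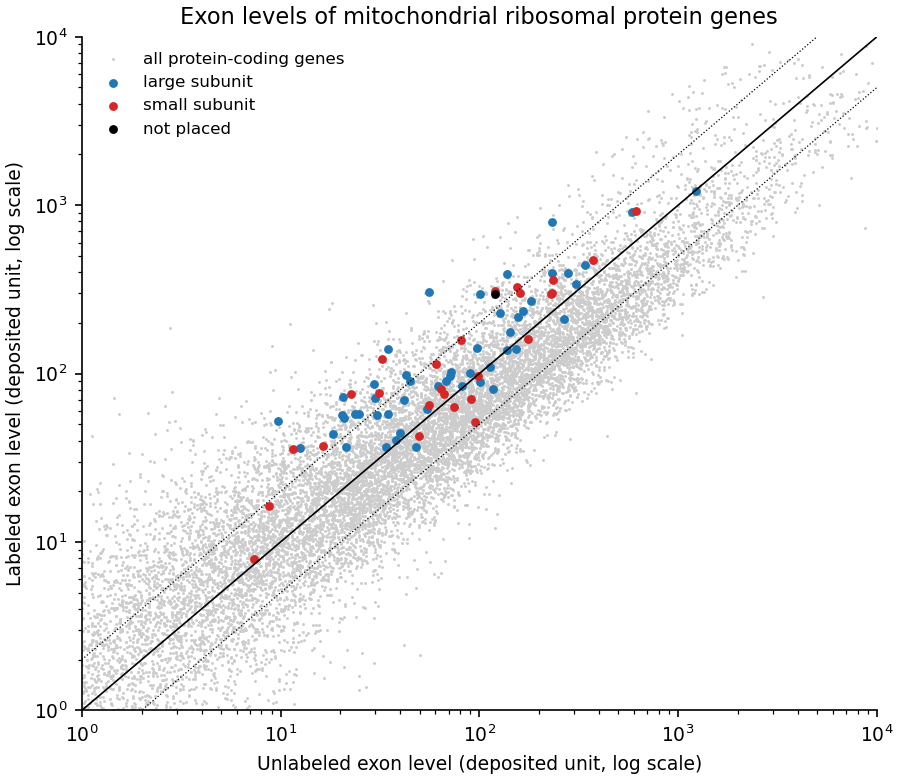
Exon level of each gene in the unlabeled (horizontal) and labeled (vertical) library, in the deposited unit on log axes, summed over protein-coding transcripts. Gray points are the protein-coding genes passing the filter that lie within the axes, colored points the 77 members, the solid line equal levels and the dotted lines a 2-fold difference. 63 of the 77 members lie above the solid line, 25 on or above the upper dotted line and 0 below the lower one.

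The highest mean level was that of Mrpl30, a large subunit protein with a bacterial counterpart, with 1221 in the labeled and 1230 in the unlabeled library. It was followed by Mrps17, a small subunit protein (929 and 616), and by Mrpl24, a large subunit protein (905 and 586). Mrpl52, found only in mitochondrial ribosomes, stood at 794 and 231, and Mrps33, a mitochondria-specific protein of the small subunit, at 473 and 372. At the other end, Mrps34, also a mitochondria-specific protein of the small subunit, was at 7.89 and 7.34, the only member with a mean below 10. Mrps11, a small subunit protein with a bacterial counterpart, was at 16.4 and 8.74, and Mrps26, Mrpl14 and Mrps6 stood between 35.8 and 37.3 in the labeled library and between 11.5 and 16.3 in the unlabeled library. The mean summed levels of genes whose proteins meet in 1 particle thus ran from 7.62 to 1226.

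Part of this order depends on how a gene is summed. In 44 members a single protein-coding transcript was in the table, and 33 had several. The median summed level of members was 65.5 with 1 transcript, 93.1 with 2, 227 with 3 or 4 and 281 with 5 or more, and over all genes passing the filter it was 19.3, 33.4, 55.9 and 121. For the most abundant transcript alone the medians were 65.5, 55.4, 111 and 77.4 for members and 19.3, 20.0, 23.6 and 30.9 for all genes. Mrpl30 had 5 transcripts and Mrps17 had 10. Ranked by the most abundant transcript, Mrpl30 was still first at 362, followed by Mrpl42 (337), Mrps24 (262), Mrpl21 (247) and Mrpl36 (238). Whether reads shared by isoforms entered the level of more than 1 of them was not tested. By this measure the median was 71.1 for members and 21.7 for all genes.

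The labeled library is meant to hold RNA made within the 10 min of labeling, and the unlabeled library what was there before, so the first question the design poses of these genes is how their shares differ between the pools. Of the 77 members, 63 had the higher exon level in the labeled library, against 42.4% of all genes passing the filter. The median log2 ratio of labeled to unlabeled was 0.57 (95% interval of the median 0.38 to 0.90, n = 77 genes; quartiles 0.16 and 1.25), against -0.23 over all genes, a difference of 0.80. This interval and those below come from binomial ranks over genes or transcripts of the same 2 libraries and carry no replicate error. Levels 2-fold or more higher in the labeled library were found for 25 members (32.5%), with a background of 18.9% of all genes. None was 2-fold or more lower, where the background was 22.4%. At 3-fold or more, 8 members were higher, against 11.4% of all genes. Members ranged from -0.88 to 2.44. Summed over members, the level was 14377 in the labeled and 9660 in the unlabeled library, a ratio of 1.49. Because the introns took 15.4% of the labeled and 6.26% of the unlabeled library, exon values rescaled to each exon total moved the median over all genes to -0.07 and that of the members to 0.72, and the sign of members near 0, such as Mrpl30 and Mrpl45, depended on this scaling. Counted from the median of all genes, 33 members were 2-fold or more higher and 0 lower, against 22.7% and 15.4% of all genes.

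**Figure D2:**
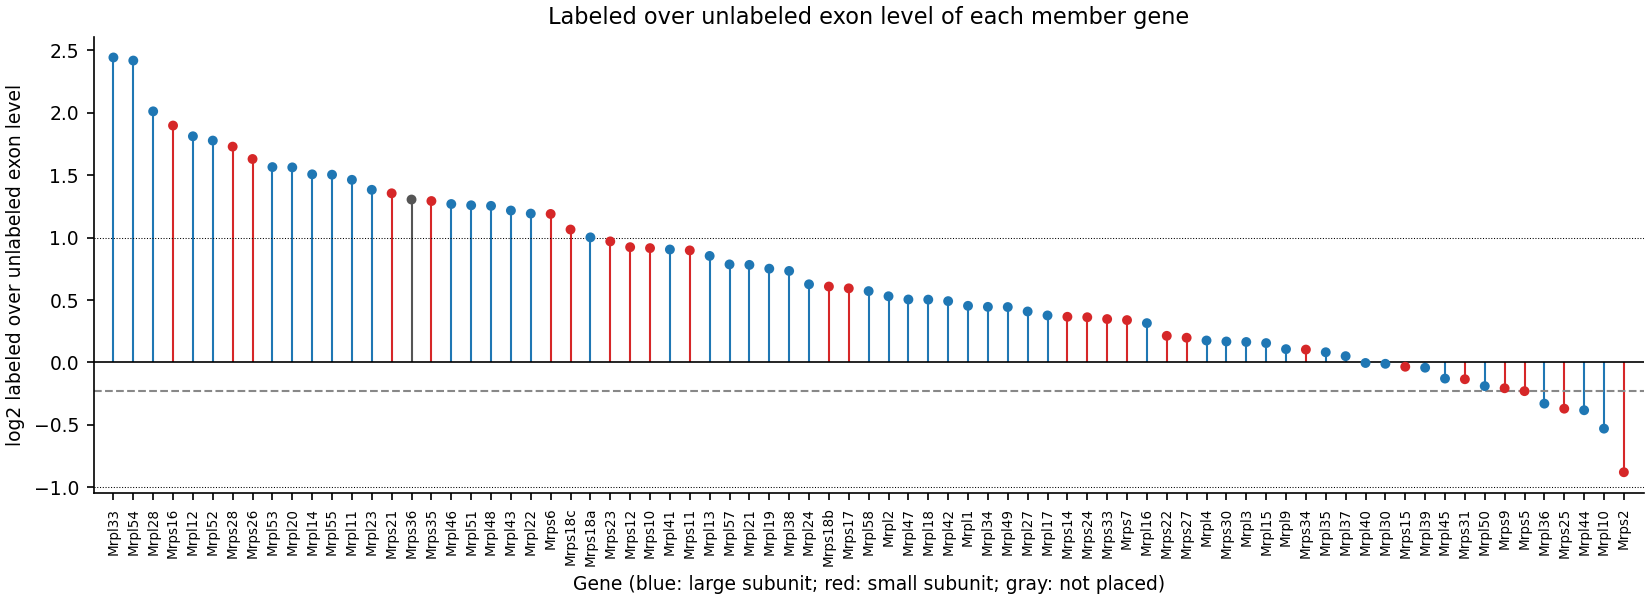
log2 ratio of labeled to unlabeled exon level for each of the 77 member genes, in descending order, 1 library per pool and so without error bars. Blue marks the large subunit, red the small subunit and gray Mrps36; the dashed line is the median over all genes passing the filter (-0.23) and the dotted lines a 2-fold difference, reached by 25 members upward and 0 downward.

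The highest ratio was that of Mrpl33, a small protein of the large subunit with a bacterial counterpart, with an exon level of 305 in the labeled and 56.0 in the unlabeled library and a log2 ratio of 2.44. Its most abundant transcript spans chr5:31613939-31622644 on the plus strand in 4 exons. Mrpl54, a mitochondria-specific protein of the large subunit, was at 52.6 and 9.75 (log2 2.42). Mrpl28, whose bacterial counterpart is L28, was at 140 and 34.7 (log2 2.01). All of these genes encode proteins of the large subunit, and in each the labeled level was at least 4 times the unlabeled level. Mrps16, the counterpart of bacterial S16, followed with 122 and 32.6 (log2 1.90). Mrpl12, the protein of the flexible stalk that recruits translation factors, was at 73.0 and 20.7 (log2 1.81), and Mrpl52 had a log2 ratio of 1.78 at the levels given above.

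The lowest ratio was that of Mrps2, a small subunit protein with a bacterial counterpart, at 51.9 in the labeled and 95.5 in the unlabeled library (log2 -0.88). Its transcript spans chr2:28468066-28471178 on the plus strand in 4 exons. Mrpl10, which anchors the Mrpl12 stalk to the large subunit, was at 80.6 and 117 (log2 -0.53). The stalk protein and its anchor thus stood near opposite ends of the order. Mrpl44, a mitochondria-specific large subunit protein with a fold like that of ribonuclease III, was at 36.7 and 47.9 (log2 -0.38). Mrps25, mitochondria-specific and in the small subunit, was at 70.2 and 90.8 (log2 -0.37), and Mrpl36, a small protein with a bacterial counterpart, at 211 and 265 (log2 -0.33). Mrps5, which also has a bacterial counterpart, was at 63.3 and 74.3 (log2 -0.23), the value of the median over all genes. In all of these the labeled level was the lower one, but by less than 2-fold.

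Sorted by subunit, the 50 genes of the large subunit had a median log2 ratio of 0.55 (0.41 to 0.90) and the 26 of the small subunit 0.48 (0.20 to 0.97). In the labeled library 17 (34.0%) and 7 (26.9%) of them were 2-fold or more higher, against 18.9% of all genes. The difference of 0.07 lay well inside the intervals and changed sign when only genes with a mean level above 10 were used (-0.04) or when transcripts of all biotypes were summed (-0.11), so no order of the subunits can be given. The 45 genes whose protein has a bacterial counterpart had a median of 0.53 (0.37 to 0.92), and the 31 mitochondria-specific ones of 0.57 (0.17 to 1.00). Split both ways, the medians were 0.50 for 29 large subunit genes with a bacterial counterpart, 0.73 for 21 mitochondria-specific ones, 0.75 for 16 small subunit genes with a bacterial counterpart and 0.28 for 10 mitochondria-specific ones. The intervals of these medians overlapped in every pair of groups.

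Mrps36, left out of both subunits because its product has been assigned to the oxoglutarate dehydrogenase complex, was at 295 and 119 (log2 1.31), and 3 annotated pseudogenes of it were also in the table, the highest at 134 and 47.6, so that reads may have been split between near-identical copies. The same limit holds for Mrpl23, at 54.8 and 20.95, with a pseudogene at 69.2 and 28.55. It also holds for Mrpl48, with a pseudogene at 13.5 and 3.73. Paralogs of Mrps18 occur in both subunits. Mrps18a, in the large subunit, was at 90.2 and 45.0 (log2 1.00), Mrps18b, in the small subunit, at 359 and 236 (log2 0.61), and Mrps18c, in the small subunit and the one nearest to bacterial S18, at 325 and 155 (log2 1.06). All 3 had the higher level in the labeled library. Mrps30, a large subunit protein in spite of its name, was at 61.4 and 54.7 (log2 0.17).

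Among genes of known function in the particle, Mrps12, at the decoding center, was at 114 and 60.3 (log2 0.92). Mrpl3, whose bacterial counterpart reaches to the peptidyl transferase center, was at 44.5 and 39.7 (log2 0.16), and Mrpl45, which lies at the exit of the peptide tunnel and tethers the ribosome to the inner membrane, at 139 and 152 (log2 -0.13). Mrpl58, a peptidyl-tRNA hydrolase that became a part of the large subunit, was at 271 and 182 (log2 0.57). In the small subunit, Mrps22 was at 65.1 and 56.1 (log2 0.21), Mrps34 had a log2 ratio of 0.10, and Mrps28, the counterpart of the bacterial protein S1, was at 75.1 and 22.6 (log2 1.73). These genes of known role spanned much of the range of the members.

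The other nuclear genes of mitochondrial translation did not all sit with the members. The 5 proteins of the particle with other symbols (Dap3, Ptcd3, Chchd1, Aurkaip1 and Gadd45gip1) had log2 ratios from -0.61 in Ptcd3 to 1.00 in Chchd1 and a median of 0.20, and none was past 2-fold in either direction. The 26 assembly factors had a median of 0.57 (-0.29 to 0.85). Of them 7 (26.9%) were 2-fold or more higher, the highest the RNA methyltransferase gene Nsun4 at 2.35, and 1 (3.85%) lower, the GTPase gene Mtg2 at -1.02. The 15 translation factors had a median of -0.03 (-0.46 to 0.79), with 3 (20.0%) higher, Mtrf1l at 1.82, Taco1 at 1.34 and Slirp at 1.23, and 0 lower. The 7 genes of mitochondrial transcription had a median of 0.14, with 0 past 2-fold in either direction. Over all genes passing the filter the shares were 18.9% higher and 22.4% lower, so counts in sets this small are descriptions only.

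Cytosolic ribosomal protein genes lay further toward the labeled library. The 79 of them had a median log2 ratio of 1.40 (1.21 to 1.56), with 62 genes (78.5%) 2-fold or more higher. The 77 nuclear genes of oxidative phosphorylation had a median of 1.20 (1.03 to 1.45), with 48 (62.3%) higher, against 18.9% of all genes. As among the members, 0 genes of either set were 2-fold or more lower, against 22.4% of all genes. The intervals of both sets lay above that of the members. Members were also expressed at lower levels, since the median mean level was 2935 for cytosolic ribosomal protein genes and 273 for oxidative phosphorylation genes.

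**Figure D3:**
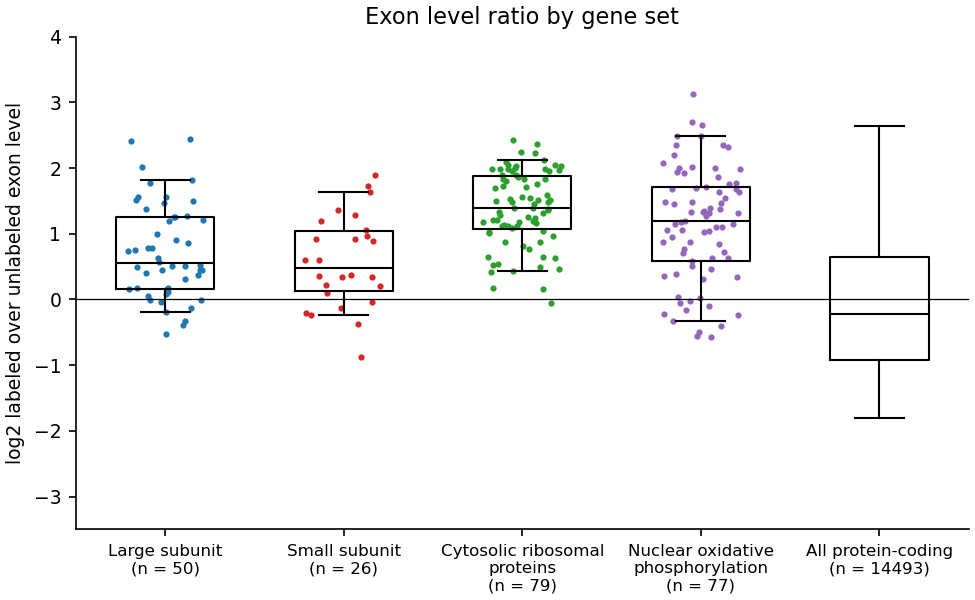
log2 ratio of labeled to unlabeled exon level by gene set. Points are genes, boxes span the quartiles with a line at the median, and whiskers reach from the 5th to the 95th percentile, with 1 library per pool. The medians of the large (0.55) and small (0.48) subunit lie between those of all genes (-0.23) and of cytosolic ribosomal protein (1.40) and oxidative phosphorylation (1.20) genes.

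Transcript length moved with the ratio, in the members and in all genes. The most abundant transcript of a member had a median spliced length of 1056 bases (range 331 to 6073) and 5 exons, against 2291 bases and 7 exons over all genes. The 25 members 2-fold or more higher in the labeled library had a median spliced length of 722 bases, the 14 that were lower of 1611.5 bases and the other 38 of 1208 bases. Across the 77 members Spearman's rho between the log2 ratio and the spliced length was -0.42, and across all 14493 genes it was -0.31. These are correlations across genes of the same 2 libraries, which are not independent replicates. The number of uridines, the bases that 4sU replaces, gave the same values of -0.42 and -0.31. Length and uridine number were not separated here.

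Within bins of spliced length the median of the members stayed above that of all genes, but their share at 2-fold did not in every bin. From 1000 to under 2000 bases 4 of 25 members (16%) were 2-fold or more higher, against 25.1% of all genes. In the other bins the share of the members was the higher one. Below 1000 bases the median log2 ratio was 0.91 for 36 members and 0.33 for all 2781 genes. From 1000 to under 2000 bases it was 0.44 for 25 members and 0.15 for all, from 2000 to under 4000 bases 0.17 for 12 members and -0.39 for all, and from 4000 bases 0.26 for 4 members and -0.71 for all. In the shortest bin the medians of 63 cytosolic ribosomal protein genes (1.48) and of 58 oxidative phosphorylation genes (1.41) were again above that of the members. From 1000 to under 2000 bases they were 1.19 for 15 and 0.46 for 15 genes, the latter close to the members. From 2000 to under 4000 bases 1 cytosolic ribosomal protein gene was at 1.89. The 4 oxidative phosphorylation genes there had a median of -0.26, below the members. Long members did occur at high ratios, such as Mrps16 with a transcript of 2572 bases, and short ones at low ratios, such as Mrpl36 with 923 bases. The part of length in the difference between members and all genes was not tested.

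**Figure D4:**
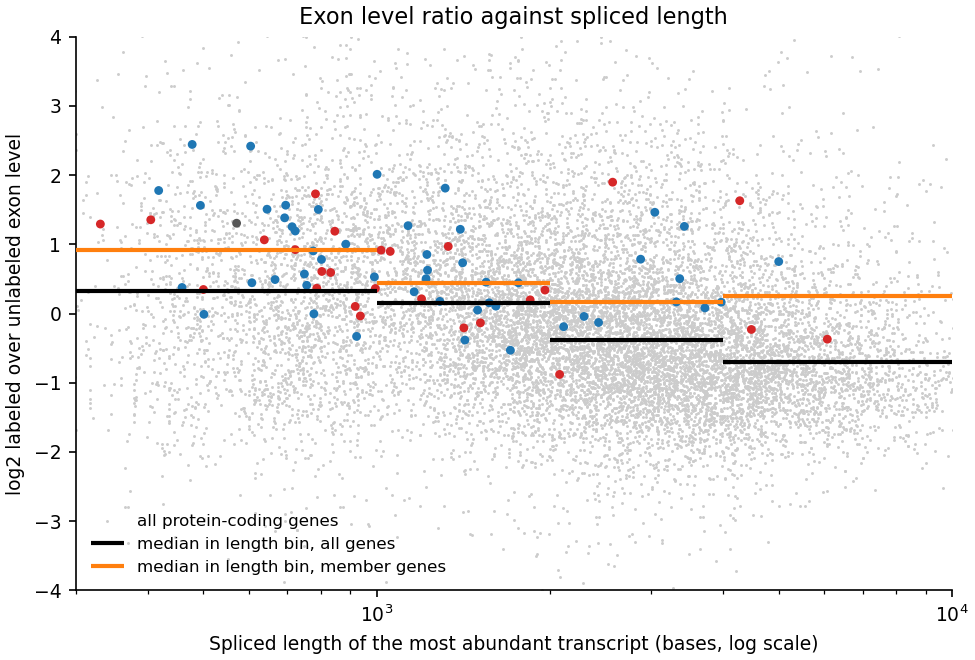
log2 ratio of labeled to unlabeled exon level against the spliced length of the most abundant transcript (bases, log axis). Gray points are the protein-coding genes passing the filter that lie within the axes, blue, red and dark gray points members of the large subunit, members of the small subunit and Mrps36, and horizontal lines the medians of members (orange) and of all genes (black) in each length bin, 0.91 against 0.33 below 1000 bases.

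Introns report on RNA that is not yet spliced. In 69 members an intron level above 0 was given in both libraries, and the median log2 ratio of labeled to unlabeled intron level was 2.05 (quartiles 1.37 and 2.64), against 1.92 over 13283 genes. The intron level was 2-fold or more higher in the labeled library in 57 of the 69, with a background of 88.2%, and 2-fold or more lower in 0, with a background of 0.708%. For the introns the members thus stood close to all genes, whereas for the exons they stood 0.80 above them. The median was 2.98 for 77 cytosolic ribosomal protein genes and 2.22 for 77 oxidative phosphorylation genes.

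The ratio of intron to exon level within a library, from which the model of the study derives rates, could be computed in both libraries for 142 member transcripts of 69 genes. A value was listed at 0 in 10 other transcripts, and 1 had no intron row. The median ratio in labeled RNA was 0.224 (0.185 to 0.272; quartiles 0.115 and 0.441), against 0.570 over 31386 protein-coding transcripts. In unlabeled RNA the median was 0.107 (0.0773 to 0.138), against 0.111. With 1 value per gene, that of its most abundant transcript, the labeled medians were 0.185 in 69 members and 0.471 in 12420 genes, and the unlabeled medians 0.0616 and 0.0918. The members thus had less intron signal per exon signal than other transcripts in the labeled library, while in the unlabeled library their place beside other transcripts depended on how transcripts were counted. Members were also shorter before splicing, with a median of 7052 bases against 17776 over all genes. By gene, Spearman's rho between labeled ratio and unspliced length was 0.45 in 69 members and 0.26 in 13283 genes. The part of this length in the lower labeled ratio was not tested. By transcript, the ratio of the ratios had a median of 2.33 in members and 5.13 in all transcripts. With a mean exon level above 10 in place of 1, the labeled medians were 0.214 and 0.440 and the unlabeled medians 0.0979 and 0.0734. The labeled and unlabeled medians were 0.0282 and 0.00842 for cytosolic ribosomal protein transcripts and 0.103 and 0.0458 for those of oxidative phosphorylation, so that the members lay between these sets and all transcripts in labeled RNA.

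**Figure D5:**
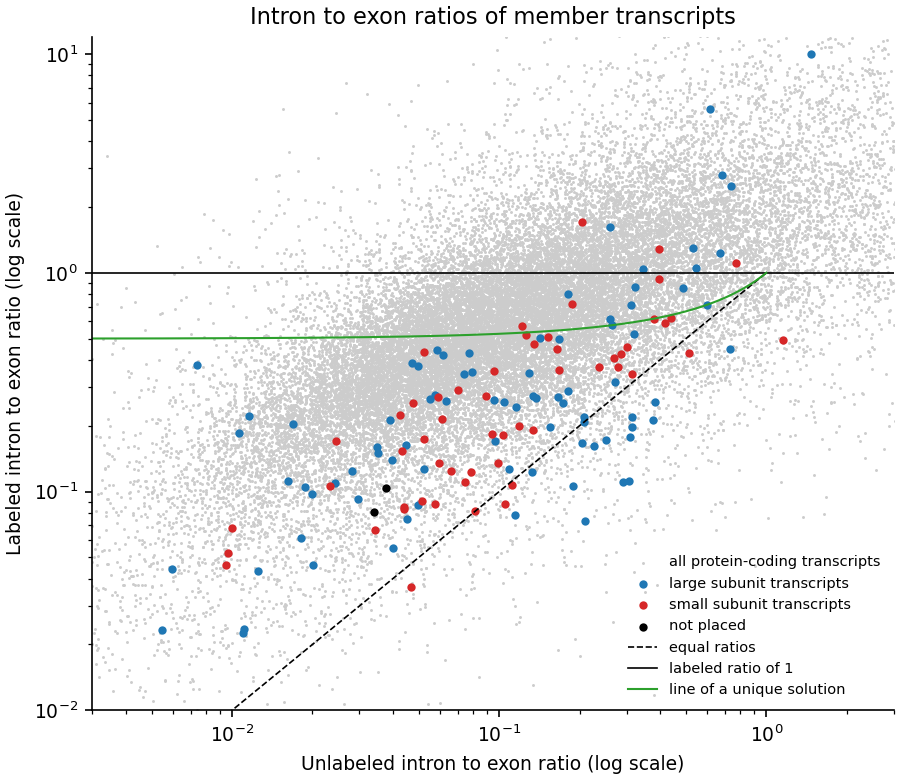
Intron to exon ratio in unlabeled (horizontal) and labeled (vertical) RNA, both on log axes, for protein-coding transcripts (gray) and for the 142 member transcripts, by subunit; points outside the axes are not drawn. The model requires ratios between the dashed and the solid black lines and gives a unique solution above the green line. Below the green line a solution need not exist. Between the dashed and the green line lie 99 member transcripts, of which 94 had no exact solution, and 9 lie between the green line and a ratio of 1.

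By gene, with levels summed over transcripts, the highest labeled ratio among members with a mean level of at least 10 was that of Mrpl48, a mitochondria-specific large subunit gene, with an intron level of 91.3 for an exon level of 71.7 (ratio 1.27). It was followed by Mrpl45 (0.797), Mrpl10 (0.755) and Mrps9 (0.720). Of these, Mrpl45 had a ratio of 0.0887 in unlabeled RNA and Mrpl48 of 0.553. This order depended on the summing over isoforms. In the most abundant transcript alone the labeled ratio was 0.525 for Mrpl48, 0.376 for Mrpl45 and 0.578 for Mrpl10, all below that of Mrps9. The lowest labeled ratios above 0 were those of Mrpl30 (0.032), Mrps2 (0.052), Mrpl18 (0.055) and Mrpl42 (0.061). Mrps2 thus combined the lowest labeled to unlabeled exon ratio with little intron signal, whereas Mrpl10, next to it in that order, had one of the highest intron to exon ratios. In Mrpl33 the ratio was 0.0731 in labeled and 0.209 in unlabeled RNA, and in Mrps28 it was 0.493 and 1.15, so in both the unlabeled RNA had the higher ratio.

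Mrpl34, Mrpl36, Mrpl41, Mrpl43, Mrpl53 and Mrps26 were listed with a labeled intron level of 0. The introns of several of them are short. Among member transcripts with less than 150 bases of intron in total, 1 of 1 had both intron values at 0, and from 150 to 300 bases 5 of 8 did, while 0 of 143 longer ones did. Over all transcripts these shares were 87.5% of 96 and 51.9% of 158, falling to 0.352% from 1200 bases. In Mrpl41 the unlabeled intron level was 10.7, and in Mrpl51 the intron level was 20.7 in labeled and 0 in unlabeled RNA, so a 0 in this table need not mean that no intron RNA was present.

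In the model, labeled RNA must have a ratio below 1 and above that of unlabeled RNA. Of the 142 member transcripts, 12 (8.45%; 95% Wilson interval 4.90 to 14.2%) had a labeled ratio of 1 or more, against 28.2% of all. A labeled ratio not above the unlabeled one was found in 22 (15.5%; 10.5 to 22.3%), against 5.1% of all. The total outside the model was 34 (23.9%; 17.7 to 31.6%), against 33.3% of all. Isoforms of a gene share exons and introns, so these intervals, which count transcripts as separate, are too narrow. The 12 came from 9 genes, with 4 from Mrpl48, and the 22 from 12 genes, with 5 from Mrpl55. With the most abundant transcript of each gene, 10 of 69 members were outside the model (14.5%), against 28.4% of all. Of the transcripts within these bounds, 99 lay below the line of a unique solution (69.7% of the 142, against 44.2% of all) and 9 above it. Within the bounds the equations still had no exact solution in 87.0% of member transcripts and 57.2% of all. The share outside the bounds is therefore not a measure of how well the model describes the members.

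For the 108 compatible member transcripts, the degradation half-life had a median of 22.7 min (quartiles 12.7 and 45.1), against 19.0 min for all compatible transcripts, and the processing half-time a median of 3.91 min, against 3.88 min. These values rest on few exact solutions, because the equations had none in 94 of the 108 (87.0%, against 57.2% of all) and the nearest point was taken. Members had the longer half-life among transcripts without a solution, with a median of 26.9 min against 17.1 min. The order was the other way for the 9 members with 1 solution (13.2 min against 34.3 min) and for the 5 with 2 solutions (5.07 min against 8.52 min), so no order of members and other transcripts can be given. Another choice of the nearest point, over both variables, gave the members a half-life of 3.20 min and a processing half-time of 1.78 min. With the second library read as total RNA, as some labels have it, these were 18.4 min and 1.38 min. By the main procedure the median half-life was 143 min for 164 cytosolic ribosomal protein transcripts, of which none had an exact solution, and 56.1 min for 120 oxidative phosphorylation transcripts, of which 4 had one.

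Isoforms of a gene differed little in most members. In the 33 members with several transcripts, the span between the highest and the lowest log2 ratio had a median of 0.27, with 10 genes having isoforms of both signs and 7 a span above 1. The widest was that of Mrps23, a mitochondria-specific small subunit gene, with 5 transcripts. Its most abundant transcript had an exon level of 57.0 in the labeled and 20.7 in the unlabeled library (log2 1.46), while its shortest, of 332 bases, had 4.77 and 13.03 (log2 -1.43). Mrpl48 came next with a span of 2.44, followed by Mrpl24 (1.66), Mrpl17 (1.48), Mrpl15 (1.25), Mrpl45 (1.17) and Mrps17 (1.10).

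Many members have close neighbors. A protein-coding gene on the other strand began within 1000 bases upstream, or overlapped the start by up to 200 bases, in 22 of the 77 (28.6%), against 10.6% of all genes passing the filter. The median log2 ratio was 0.47 in these 22 and 0.63 in the others. Mrpl46 is one of them, since the start of its most abundant transcript on chromosome 7 is 30 bases from that of Mrps11. The annotated gene of Mrpl46 reaches further and overlaps Mrps11, which is not among the 22. Mrpl46 was at 57.4 and 23.8 (log2 1.27) and Mrps11, given above, at a log2 ratio of 0.90. In Mrps12 the neighbor was Sars2, a mitochondrial seryl-tRNA synthetase gene, 172 bases away. An annotated gene overlapped on the other strand in 36 members, among them Mrpl33 with Rbks and Mrps18a with Rsph9 (46.8%, against 43.4% of all genes passing the filter), and on the same strand in 11 (14.3%, against 17.5%), so both shares were near those of all genes. The strandedness of the libraries is not given in the sources used here, so reads of members with an antisense overlap cannot be told apart from those of the partner.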

How the data were processed

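Wild-type mouse embryonic stem cells gave 1 labeled and 1 unlabeled library after 10 min of 4sU. Per the submitters' processing notes, the authors used STAR 2.5.0 and RSEM with builds mm10 and GRCm38; the study states that reads not mapping to ribosomal RNA were aligned to exons and introns. The deposited values are other than counts: a relative exon level and, where there are introns, a relative intron level per transcript, named TPM although a column adds up to 10 times what TPM would. Thresholds planned in TPM were applied to values as deposited. Read depth is unknown.

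Transcripts were joined to GENCODE M21 (the study used Ensembl 91), and exon levels were summed per gene over protein-coding transcripts. The log2 ratio used a pseudocount of 0.1, which understates the difference of low genes, and genes with a mean exon level above 1. Intron to exon ratios were taken per transcript with all values above 0, and rates from Eqs. 10 to 17 of the study on 4000 grid points, with the minimum of Eq. 16 where no solution existed; the solver and the gene summary were tested on simulated data. No test was made, each pool having 1 library. Medians have 95% binomial rank intervals and shares 95% Wilson intervals, both over genes or transcripts. Promoters are those of RefSeq on GRCm38.p6. Members, comparison sets and lists were chosen with earlier results of these data known. Named were the 5 genes highest and lowest in level, the 6 in log2 ratio and the 4 in labeled intron to exon ratio (mean level of at least 10 for the last 2 rules), and 15 genes listed by name in that rule. Mrps23, Mrpl23, Mrpl46, Mrpl51, Mrpl55 and the printed promoters were chosen after their values were seen, as were the members of other lists named by their extremes. Alternatives were other filters, pseudocounts, sums, folds and scalings, subtraction of leakage, a reading of the second library as total RNA, and other choices among solutions. Scripts ran under Python 3.11.15 with pandas 2.3.3, numpy 2.4.6, matplotlib 3.10.9 and scipy 1.17.1.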

Additional observations from a re-analysis of the deposited data

How the results depend on the processing

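No paired analysis was possible because each pool has 1 library and the libraries share only the replicate number 1. Leaving out a replicate was not possible for the same reason. Of 82 values recomputed with other settings, 67 kept their sign and stayed within the interval of the value reported above (for a count of genes, within 1.5 times it), 2 changed sign inside that interval and 13 lay outside it. Some of the 67 could not change, so their number overstates how well the values held. All members passed the filter, so values of the members alone were identical without it. Reading the second library as total RNA left the intron to exon ratios and the share outside the model untouched. Subtraction of leakage left the unlabeled ratio untouched. The median log2 ratio of the members was 0.43 to 0.72 over all alternatives. The difference from all genes fell to 0.57 with no filter, where genes at 0 in both libraries entered the comparison. The difference between the large and the small subunit reversed to -0.043 with a mean level above 10 and to -0.11 with all biotypes summed. Members 2-fold lower became 1 after subtraction of leakage, set at 0.142 times the unlabeled value, against 35.1% of all genes. At a 1.5-fold threshold 1 member was lower, against 37.3%. Members higher became 38 of 77 at 1.5-fold, against 26.4% of all genes, and 8 of 77 at 3-fold, against 11.4%. At 3-fold the share of members higher was thus not above that of all genes with a mean level above 1. These include genes of lower level than nearly all members. With a mean level above 10, 25 of 76 members were 2-fold or more higher, against 11.5% of 10345 genes. In that setting 0 members were 2-fold or more lower, against 24.7%, and the difference of medians was 0.98. The 3-fold share was not computed there. With the most abundant transcript of each gene, the unlabeled intron to exon ratio was 0.0616 and the share outside the model 14.5%, and gene sums also gave 14.5%; the cause was not tested. Read as total RNA, the second library gave a median half-life of 18.4 min and a processing half-time of 1.38 min. Eq. 15 over both variables gave 3.20 min and 1.78 min, and exact solutions alone gave a half-life of 8.86 min, over fewer transcripts. What limits every value is the single library per pool and the unknown depth.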
